A study of Mus musculus with 4 samples.

Results

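Cntfr encodes the receptor of ciliary neurotrophic factor (CNTF), and it was examined in the testis together with the genes of the receptors and ligands that act with it. The 8 genes (Cntfr, Lifr, Il6st, Il6ra, Il11ra1, Cntf, Clcf1 and Lif) were chosen by symbol, with earlier results of these data known. Among the 18820 genes with a value of their own are 6 of them. Cntfr itself was picked because it was higher in KO testes, so its values are given as a description and not tested. Whole testes of adult mice were profiled with 4 arrays of the Affymetrix Mouse Gene 1.1 ST type. Azin2 KO mice and Azin2 WT mice gave 2 arrays each, and the RNA of 3 mice was pooled for every array. In the KO mice, which have a C57BL/6 mixed background, Azin2 is interrupted by a β-Geo cassette in both copies, and the start of AZIN2 is still made as a fusion with bacterial β-galactosidase. The line is also described as hypomorphic. The mice received no treatment, and nothing in the labels says whether the pools were made from littermates. Values are log2 signals from RMA, a method that corrects for background, makes the arrays' distributions alike and combines the probes of a probe set into 1 value.

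CNTF, cardiotrophin-like cytokine (CLCF1) and leukemia inhibitory factor (LIF) belong to the interleukin-6 family of cytokines, whose receptors share gp130, the product of Il6st. CNTFR has no signalling domain of its own and is held on the membrane by a glycolipid anchor, and with CNTF or CLCF1 it brings gp130 and LIFR together. LIF binds LIFR and gp130 without it, whereas the receptors encoded by Il6ra and Il11ra1 work with gp130 alone. The paired chains activate JAK kinases and the transcription factor STAT3, whose targets include the inhibitor SOCS3. LIF is known as a survival factor for primordial germ cells in culture.

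Of the 8 genes, 6 had a probe set of their own, 1 each. Cntf was covered only by a probe set that also matches Zfp91 and Gm44505, and no probe set is named for Il11ra1 here. In the reference annotation Il11ra1 is the 7th gene after Cntfr. Its close paralog Il11ra2 has no value here either.

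Promoter sequence is shown for the 2 genes that differed most between the genotypes, Cntfr and Lifr, so that their start regions can be compared. These are the 250 bases before the farthest upstream start that RefSeq lists for each gene (GRCm38.p6, C57BL/6J sequence), written 5′ to 3′ on the gene's own strand with CG dinucleotides in capitals. The Cntfr window is chr4:41696038-41696287 on the minus strand and the Lifr window is chr15:7129322-7129571 on the plus strand.
Cntfr: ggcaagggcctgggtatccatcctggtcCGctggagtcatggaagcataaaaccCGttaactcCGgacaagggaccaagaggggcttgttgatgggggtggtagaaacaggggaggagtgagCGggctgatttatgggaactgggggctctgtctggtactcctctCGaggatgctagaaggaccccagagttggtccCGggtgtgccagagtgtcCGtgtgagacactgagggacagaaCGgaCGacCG
Lifr: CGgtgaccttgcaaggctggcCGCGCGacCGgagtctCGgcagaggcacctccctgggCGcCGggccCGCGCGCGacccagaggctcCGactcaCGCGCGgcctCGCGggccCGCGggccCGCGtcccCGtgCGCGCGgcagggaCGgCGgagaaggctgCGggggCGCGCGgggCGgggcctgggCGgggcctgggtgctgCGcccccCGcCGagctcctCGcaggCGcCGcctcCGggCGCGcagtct

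The Cntfr window holds 10 CG dinucleotides at 58.8% G and C, and the Lifr window holds 43 at 82.4%, where the median of all 32851 windows in the table was 6 CG dinucleotides and 52.4%. RefSeq lists 6 starts for Cntfr, whose windows overlap in part and hold between 3 and 37 CG dinucleotides, and 2 starts for Lifr, with 43 and 3. The array summarizes each gene in 1 value and does not tell its starts apart. A STAT binding motif, TTCNNNGAA, which reads the same on both strands, was found in 0 of the 14 windows of the 7 members in the table (Clcf1 has none there), against 7.02% of all windows. The GC box GGGCGG, searched on both strands, was in 6 of the 14 windows and in 32.7% of all windows. It occurred 2 times in the Lifr window shown and not in the Cntfr window shown. Some other Cntfr windows held it 1 or 2 times, and as these overlap, a site can count in more than 1 window.

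Azin2, the targeted gene, had log2 signals of 7.36 and 7.14 in KO testes, against a mean of 10.08 ± 0.11 in WT testes (SD, n = 2 pools; log2 difference -2.83, standard error 0.10, adjusted p = 0.0250 from limma). Germ cell genes were bright on every array, with means of 5 spermatid markers such as Prm1 between 11.67 and 11.70. KO was compared with WT by limma across all 23099 named probe sets, and among the genes only Azin2 had an adjusted p under 0.05 (1 gene, 0.00531%). Leaving out WT replicate 1 raised its adjusted p to 0.294, and leaving out WT replicate 2 raised it to 0.232. Calls below are therefore at an unadjusted p under 0.05, which 3.95% of the 18820 genes passed (2.18% higher and 1.77% lower in KO). As all arrays of a genotype are pools, the p-values measure the spread between pools and not between animals.

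Cntfr had log2 signals of 8.22 and 8.36 in KO testes, against 7.29 and 7.08 in WT testes (probe set 10512279). Both KO pools lay above both WT pools, as the choice of the gene had fixed. The means were 8.29 ± 0.10 in KO and 7.18 ± 0.15 in WT testes (SD, n = 2 pools each), a log2 difference of 1.11, or 2.15-fold. It had the 5th highest difference among the 18820 genes. The signal of Cntfr stood between percentiles 50.6 and 66.1 of all genes over the 4 arrays, so that in WT testes it was close to the middle of the table.

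Lifr, the signal-transducing partner of CNTFR and the receptor of LIF, went the other way. Its log2 signals were 8.51 and 8.43 in KO testes, against 8.95 and 8.80 in WT testes (probe set 10422822). The groups did not overlap, which was also true of 32.4% of all genes (20.3% higher and 12.2% lower in KO). The means were 8.47 ± 0.06 in KO and 8.87 ± 0.11 in WT testes (SD, n = 2 pools each), a log2 difference of -0.40 (95% confidence interval -0.59 to -0.22, unadjusted p = 0.00263 and adjusted p = 0.9995 from limma), which makes the WT level 1.32-fold that of KO. Lifr thus passed the unadjusted threshold but not the adjusted one. Of all genes, 0.494% differed by more than Lifr in either direction, and it ranked 63rd from the lowest difference. Its difference ranged from -0.48 to -0.33 when each array was left out. Lifr was the only one of the 5 members tested with a probe set of their own that was called, against the background of 3.95% given above.

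**Figure D1:**
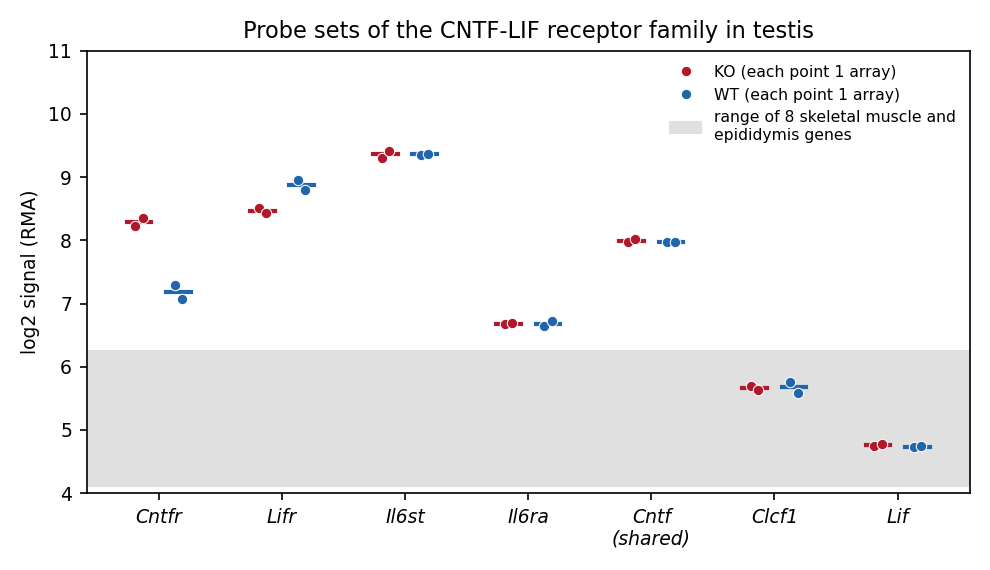
Log2 signal (vertical axis) of the 7 probe sets that match the receptor family, with KO values drawn red and WT values blue. Points stand for single arrays and short bars for genotype means, and the grey band spans the signals of 8 genes of skeletal muscle and epididymis, from 4.11 to 6.25. Cntfr was higher and Lifr lower in both KO pools.

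Il6st, which encodes the shared chain gp130, had log2 signals of 9.31 and 9.42 in KO testes and 9.36 and 9.36 in WT testes. The KO pools lay on either side of the WT pools. The log2 difference was -0.00061 (95% confidence interval -0.15 to 0.15, unadjusted p = 0.992 from limma), so that a change of more than 0.15 in either direction lay outside the interval. Of the members measured, its probe set gave the brightest signal, between percentiles 78.1 and 79.6 of all genes, although signals of different probe sets are not on one scale of abundance.

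Il6ra, the interleukin-6 receptor that uses gp130 without LIFR, was likewise close to 0. It had 6.67 and 6.68 in KO testes and 6.64 and 6.72 in WT testes on the log2 scale, with overlapping groups and a log2 difference of -0.0019 (95% confidence interval -0.14 to 0.14). Both it and Il6st differed between genotypes by less than the spread between pools.

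Among the ligands, Clcf1, the partner ligand of CNTFR, had log2 signals of 5.70 and 5.63 in KO testes and 5.76 and 5.59 in WT testes. The WT pools enclosed the KO pools, and the log2 difference was -0.0090 (95% confidence interval -0.20 to 0.19). Lif had 4.75 and 4.78 in KO and 4.73 and 4.74 in WT testes. Its KO pools were above its WT pools by a log2 difference of 0.03 (95% confidence interval -0.09 to 0.16, unadjusted p = 0.541 from limma), which did not pass the test. Both ligands were dim. The 8 measured genes of skeletal muscle and epididymis, tissues that a testis sample should lack, had log2 signals from 4.11 to 6.25, the top being Ckm, with a median of 5.01, and Clcf1 and Lif lay within that range on all 4 arrays.

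The probe set that matches Cntf together with Zfp91, a broadly expressed zinc finger gene, had log2 signals of 7.98 and 8.02 in KO and 7.97 and 7.98 in WT testes. Its log2 difference of 0.02 (95% confidence interval -0.10 to 0.15) belongs to the 3 genes together and gives Cntf no level of its own.

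**Figure D2:**
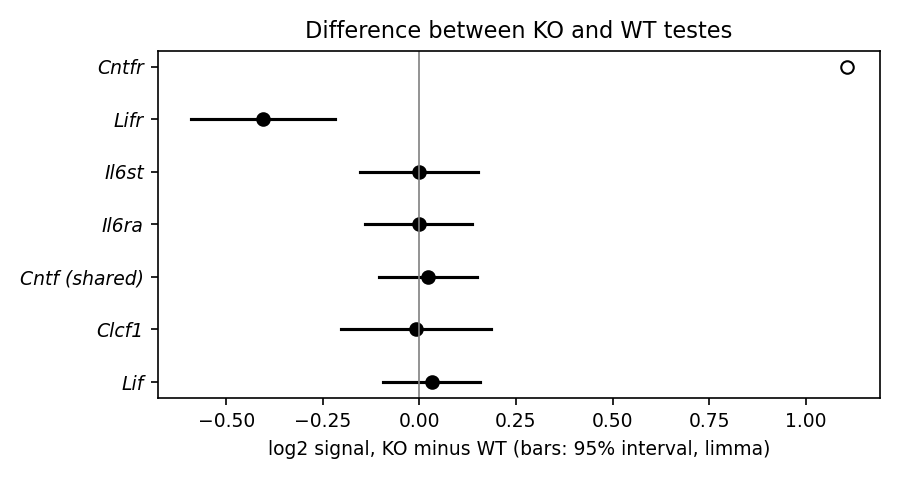
Log2 signal in KO minus WT testes (horizontal axis) for the 7 probe sets, with 95% confidence intervals from limma (2 pools per genotype) for all but Cntfr. Cntfr, an open point without an interval because it was chosen for its difference, lies at 1.11 and Lifr at -0.40, and the intervals of the other 5 include 0.

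Other genes of gp130 signalling were examined as 6 lists with 60 genes in all, 57 of them measured. These lists, too, were chosen with earlier results of these data known. Of the 57, 4 were called (7.02%, against 3.95% of all genes), 1 higher and 3 lower in KO, and none passed the adjusted threshold. Their median log2 difference was -0.01, against 0.01 over all genes.

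The cytokines of the family were mostly dim and differed little. Of 8 measured, Osm, which encodes oncostatin M, was called. Its log2 signals were 5.07 and 5.02 in KO testes and 4.91 and 4.89 in WT testes, a log2 difference of 0.15 (unadjusted p = 0.0365 and adjusted p = 0.9995 from limma). The KO pools lay above the WT pools, but every one of these signals was within the range of the muscle and epididymis genes, and Osm was not called when any 1 array was left out. Il6 was at 3.89 and 3.90 in KO testes and at 3.83 and 3.86 in WT testes, among the dimmest signals.

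The other receptors of the family gave no call among 7 measured (median 0.0053). Osmr, the oncostatin M receptor, had the lowest difference, with 7.09 and 6.85 in KO testes and 6.89 and 7.49 in WT testes. Its WT pools lay further apart from each other than the genotype means did, and the log2 difference of -0.22 had a standard error of 0.21. Lepr, the leptin receptor, was at -0.10, Csf3r, the receptor of granulocyte colony-stimulating factor, at 0.08, and Il12rb2, a chain of the interleukin-12 receptor, at 0.07.

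Of 11 measured kinases, STAT factors and adaptors, 0 were called by limma at an unadjusted p under 0.05 (median -0.01). Stat3, the factor that this receptor family is best known to activate, had 9.04 and 9.11 in KO testes and 9.06 and 9.11 in WT testes, a log2 difference of -0.01 (95% confidence interval -0.15 to 0.13). The adaptor Grb2 had the lowest difference, -0.15, and Stat5b the highest, 0.09. Jak2 was at -0.06 and the phosphatase gene Ptpn11 at 0.05. These are levels of mRNA, and phosphorylation of the proteins was not measured.

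The 8 negative regulators also gave no call (median -0.02). Socs3, the feedback inhibitor that binds gp130, had 6.12 and 6.20 in KO testes and 5.95 and 6.17 in WT testes. One WT pool reached the level of the KO pools, and the log2 difference was 0.11 (95% confidence interval -0.12 to 0.33). Socs2, a suppressor of growth hormone signalling, had the largest difference of the list, 0.22, with KO pools at 8.24 and 8.83. Pias3, an inhibitor of STAT3, was at -0.09 and Socs1 at -0.06.

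Of 16 genes known as targets of STAT3, 3 were called lower in KO and 0 higher (background 1.77% lower and 2.18% higher), and 11 lay below 0, with a median of -0.11. Bcl3, a nuclear regulator of NF-κB, had 6.17 and 6.35 in KO testes and 6.45 and 6.65 in WT testes (log2 difference -0.29, unadjusted p = 0.0304 from limma). Pim1, a serine/threonine kinase, had 9.61 and 9.71 in KO testes and 9.89 and 9.80 in WT testes (log2 difference -0.19, unadjusted p = 0.0294 from limma). Vegfa, the vascular growth factor, had 7.06 and 7.08 in KO testes and 7.19 and 7.29 in WT testes (log2 difference -0.17, unadjusted p = 0.0324 from limma). In all 3 the groups did not overlap, which held for 6 of the 16 in the direction of a lower level in KO and for 12.2% of all genes in that direction. Lcn2, also among the 6 and bright, had 11.70 and 12.11 in KO testes and 12.14 and 12.19 in WT testes. Its log2 difference of -0.26 was not called (unadjusted p = 0.116 from limma). Hamp and Junb, the rest of the 6, were dim, within or below the range of the muscle and epididymis genes. So were Fos, Gfap, Cebpd, Myc and Cebpb among the 16. Socs3, also a target of STAT3, is counted with the negative regulators, at a log2 difference of 0.11.

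The count of 3 rested on single arrays. It was 0 without KO replicate 1, 3 without KO replicate 2, 7 (6 lower) without WT replicate 1, 1 without WT replicate 2 and 0 by the methods' t-test. The mean of 5 macrophage markers was also lowest in KO replicate 1, at 6.83, and 7.10 in KO replicate 2, against 6.97 and 7.27 in WT testes. All 5 of them had a lower mean in KO, with 0 called, and the dimmest was Cd163. The 5 endothelial markers also all had a lower mean in KO, with list means of 6.39 and 6.50 in KO and 6.54 and 6.50 in WT testes. All 4 measured Leydig cell markers had a lower mean in KO too, with 0 called. Their list mean was lowest in KO replicate 1, at 10.45, and 10.75 in KO replicate 2, against 10.72 and 10.62 in WT testes. The part of these cell types in the differences of Lifr and of these targets was not tested. In whole testes, fewer cells of a type and less RNA per cell cannot be told apart.

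**Figure D3:**
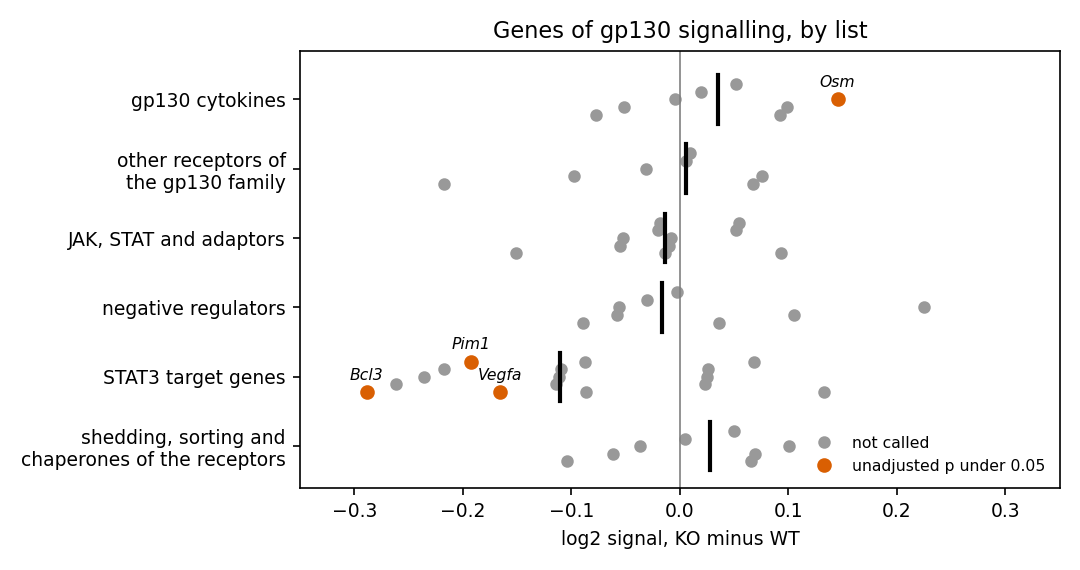
Log2 signal in KO minus WT testes (horizontal axis) for 6 lists of genes in gp130 signalling. Each point is 1 gene, black bars are list medians, and orange points, named, passed an unadjusted p of 0.05 from limma, with Osm above 0 and Bcl3, Pim1 and Vegfa below it. Osmr appears in 2 lists.

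Of 8 genes that shed, sort or process such receptors, 0 were called by limma at an unadjusted p under 0.05 (median 0.03). Adam17, a protease that sheds the interleukin-6 receptor, was at a log2 difference of 0.07. Sorl1, a sorting receptor known to bind CNTFR and the interleukin-6 receptor, was at -0.06. Pgap1, an enzyme that remodels glycolipid anchors like that of CNTFR, was at -0.10, and Sorcs1, a sorting receptor, at 0.10.

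Markers of the cells that a testis holds were set beside Cntfr. The 5 spermatocyte markers were all above 0, with list means of 11.05 and 11.01 in KO testes and 10.97 and 10.95 in WT testes, groups that do not overlap, and 1 of them, Tex101, was called higher in KO (log2 difference 0.17, unadjusted p = 0.0326 from limma). The 6 Sertoli cell markers were all above 0, with list means of 7.91 and 8.05 in KO and 7.94 and 7.80 in WT testes, groups that overlap and that lie 0.11 apart on average. Peritubular myoid cell markers had means of 8.05 and 8.04 in KO testes and 8.06 and 7.94 in WT testes. The 4 measured Leydig cell markers, all below 0, had means of 10.45 and 10.75 in KO testes and 10.72 and 10.62 in WT testes. Those of Schwann cells and nerve, 3 measured, had 6.28 and 6.16 in KO testes and 6.26 and 6.20 in WT testes. The 5 markers of skeletal muscle, a tissue known for its CNTFR, had means of 5.40 and 5.39 in KO testes and 5.36 and 5.35 in WT testes, and 1 of them, Ckm, was called higher, with 6.25 and 6.12 in KO testes and 6.0 in both WT pools (log2 difference 0.19, unadjusted p = 0.0308 from limma). Acta1 had KO pools above its WT pools (log2 difference 0.11) and was not called. Tnnt3 went the other way, with KO pools below its WT pools (log2 difference -0.06). Myh4 was at -0.05 and Mylpf at 0.03. The part of these cells in the difference of Cntfr was not tested.

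The genes on either side of Cntfr were examined to see whether its difference extended along the chromosome. Of 20 measured neighbours, 10 on each side in the order of the reference annotation, 0 were called higher and 2 lower in KO. The shares over all genes were 2.18% higher and 1.77% lower. Groups did not overlap for 3 neighbours with KO higher and 6 with KO lower, against 20.3% and 12.2% of all genes. The median log2 difference of the neighbours was 0.00056. Enho, which encodes the peptide adropin and is the nearest measured gene before Cntfr, had 5.58 and 5.61 in KO testes and 5.50 and 5.42 in WT testes (log2 difference 0.13, unadjusted p = 0.0555 from limma). Rpp25l, the next gene after Cntfr, had 7.45 and 7.32 in KO testes and 7.48 and 7.23 in WT testes, with overlapping groups (log2 difference 0.03). Dctn3, a dynactin subunit gene, was at 0.12.

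The 2 neighbours called were both lower in KO and lay beyond Il11ra1. 4930578G10Rik had 8.90 and 8.90 in KO testes and 9.38 and 9.49 in WT testes, a log2 difference of -0.53 ± 0.06 (standard error; limma gave an unadjusted p of 0.000265 and an adjusted p of 0.9995). It is the 52nd annotated gene after Cntfr. Gm3893, the 24th, had 9.99 and 10.07 in KO testes and 10.31 and 10.20 in WT testes (log2 difference -0.22, unadjusted p = 0.0180 from limma), and was not called without KO replicate 1 or without WT replicate 1. Between Galt, the 6th gene, and Gm3893 no annotated gene has a value here, and Il11ra1 lies in that gap.

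**Figure D4:**
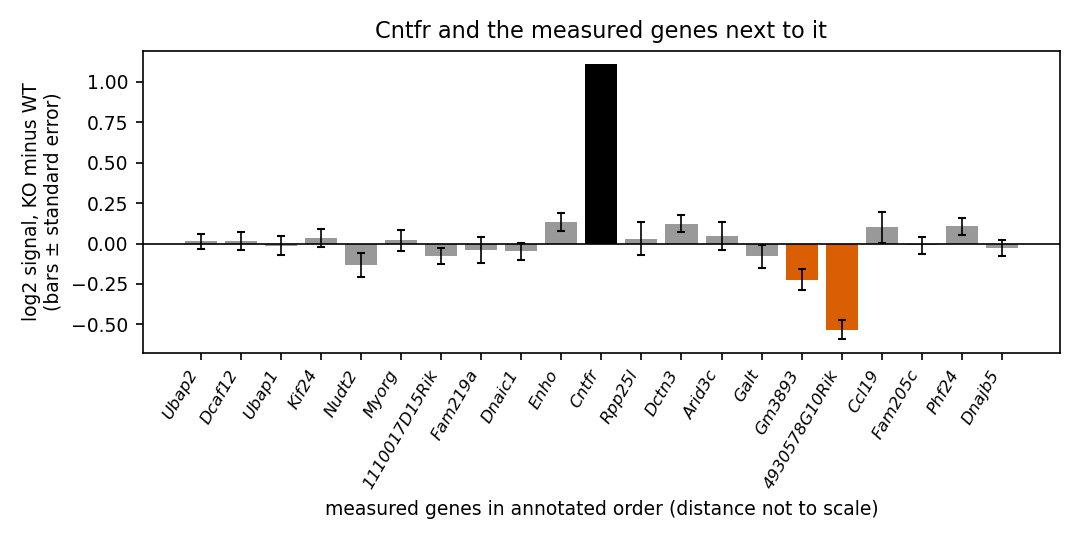
Log2 signal in KO minus WT testes (vertical axis) of Cntfr in black and, with the standard error from limma, of the 10 measured genes on each side, in annotated order. Orange bars are the 2 genes at an unadjusted p under 0.05, Gm3893 and 4930578G10Rik. The nearest measured genes to Cntfr lie at 0.13 (Enho) and 0.03 (Rpp25l).

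The genes whose values over the 4 arrays were most like those of Cntfr were found by the Euclidean distance between log2 values, each gene centred on its own mean. The nearest was Gprc5a, a receptor induced by retinoic acid, at a distance of 0.44, with 6.55 and 6.29 in KO testes and 5.70 and 5.60 in WT testes. Next came Zfp980 (0.59), Gpx8 (0.60), a peroxidase of the endoplasmic reticulum, Cyp2c55 (0.62) and Tent5b (0.63). All 5 had a higher mean in KO, by log2 differences from 0.53 to 0.77, none as large as that of Cntfr. With 4 arrays in 2 groups, this likeness reflects mainly the size of the difference between genotypes.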

How the data were processed

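Testis RNA was measured on 4 Affymetrix Mouse Gene 1.1 ST arrays, 2 pools of 3 mice for each genotype. The authors deposited 1 log2 signal for each probe set and array, made with RMA, and the submitters' processing notes name Partek 6.13.1224. Genome build, annotation version and summarization level are not given in the sources used here. Names came from the platform's annotation, updated by gene identifier, and of 35556 probe sets 21218 carried 1 symbol, 1881 several and 12457 are unnamed here. A gene took its probe set with the highest mean. The genotypes were compared with limma 3.58.1 (R 4.3.3, lmFit and eBayes, no filter) on the 23099 named probe sets, with Benjamini-Hochberg adjustment, and the fit was tested on simulated data. The number of arrays limits the precision. The members and lists were chosen with earlier results of these data known. The rule named all members, called genes of each list or else the 2 largest changes each way, the adjacent and called neighbours of Cntfr, and the 5 genes most like it. Other genes were named after their values were seen. Alternatives were an intensity trend, the methods' t-test, quantile normalization, centring, a level filter, every probe set, averaged probe sets, a replicate block, each array left out, and other calls and windows. Figures were drawn with matplotlib 3.10.9.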

Additional observations from a re-analysis of the deposited data

How the results depend on the processing

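By limma or the methods' t-test, Lifr and Azin2 stayed under an unadjusted p of 0.05 in every alternative run that kept all 4 arrays. Those that changed only the test or the probe sets tested left the differences of Cntfr, Lifr and Azin2 unchanged. Their directions also held with quantile normalization and centring, which for Cntfr is no support, as it was picked for its direction. The groups of these genes did not overlap, so that leaving out 1 array could not reverse a direction. The differences then ranged from 1.0 to 1.21 for Cntfr, from -0.48 to -0.33 for Lifr and from -2.94 to -2.72 for Azin2. In these fits the lone array of a genotype was assumed to vary like the other genotype. Azin2 lost its adjusted call over every probe set (adjusted p = 0.0707), by the methods' t-test (0.868), without WT replicate 1 (0.294) and without WT replicate 2 (0.232). Lifr had an unadjusted p of 0.0431 by the methods' t-test. The count of 946 named probe sets called was 457 above the median level and 1724 over every probe set, as fewer or more were tested, 19 at a fold of 1.5, 1 at an adjusted p of 0.05, and 651 to 1205 with an array left out. The 4 pathway genes called became 2 by the methods' t-test (2 higher), 2 with quantile normalization and 2 to 7 with an array left out, and the cause was not tested. The 2 called neighbours, both lower in KO, became 1 with 5 genes on each side. By the methods' t-test the count was again 2, but with 1 higher and 1 lower in KO. Il6st, Il6ra and Clcf1, close to 0, changed sign: Il6st was 0.0088, Il6ra 0.0074 and Clcf1 0.00037 with arrays centred, Il6ra was 0.019 with quantile normalization, and they ranged from -0.056 to 0.055, from -0.043 to 0.039 and from -0.095 to 0.077 with an array left out. Arrays of the same replicate number did not deviate together over the named probe sets (correlation of deviations -0.08). With 2 arrays per genotype, this cannot show whether the numbers mark pairs. With a replicate block, 692 named probe sets and 2 pathway genes were called, Lifr stayed called (unadjusted p = 0.00232) and the 2 neighbours stayed 2. Lif and Clcf1 were dim, within the range of the skeletal muscle and epididymis genes.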
